A study of Rattus norvegicus with 20 samples.

Results

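Bulk RNA sequencing of rat dorsal root ganglia (DRG, which hold the cell bodies of sensory neurons) gave 3 libraries of 20 in which transcripts of spinal cord cells were abundant. These were replicate 1 of FOD-CT, replicate 1 of FOD-CCI and replicate 1 of the contralateral DRG of FOD-CCI rats, which makes 3 of the 10 libraries from rats on the fish oil diet (FOD). They were chosen from their measured levels of glial genes (Gfap, Mbp and Slc1a3), so every difference between them and the 7 other FOD libraries is a description, without a test. The 3 libraries came from only 2 rats, because the left and the contralateral DRG of FOD-CCI replicate 1 were taken from the same animal.

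All rats were female Sprague-Dawley rats with no transgene, 8 to 10 weeks old when the study began, and received a soy oil diet (SOD) or FOD for 4 weeks before surgery. CCI (chronic constriction injury) placed loose ligatures around the left sciatic nerve, and CT rats had a sham exposure of that nerve. The FOD libraries were 3 FOD-CT, 4 FOD-CCI and 3 contralateral (right) DRG from FOD-CCI rats, and the SOD libraries were 4 SOD-CT, 3 SOD-CCI and 3 contralateral DRG. The DRG were collected 1 week after surgery.

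A DRG sits on the dorsal root close to the spinal cord. It holds sensory neuron cell bodies wrapped by satellite glia, and axons myelinated by Schwann cells. The cord is a part of the central nervous system (CNS): its axons are myelinated by oligodendrocytes, its astrocytes take up glutamate and buffer water and potassium, and its neurons include inhibitory interneurons, dorsal horn neurons and motor neurons. Some genes are used on both sides of this border, among them the myelin gene Mbp and the glutamate-handling genes Slc1a3 and Glul, which satellite glia and Schwann cells also express.

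Several libraries stood apart from their labels. Total counts ran from 22547190 to 54437581 over the 20 libraries and were 31409402 in FOD-CT replicate 1, 22547190 in FOD-CCI contralateral replicate 1 and 26887522 in FOD-CCI replicate 1. FOD-CCI contralateral replicate 1, labelled as a DRG, had 0 counts of 5 of the 17 ganglion neuron genes examined. FOD-CCI replicate 1, labelled as injured, did not have the injury genes Atf3, Npy and Gal at the levels of the other FOD-CCI libraries. Among the libraries used for comparison, FOD-CT replicate 2 and FOD-CCI contralateral replicate 3 carried skeletal muscle transcripts, and SOD-CT replicate 1 had 39.7% of its counts above the range of the 7 other FOD libraries, with muscle genes at the top. Levels are given as CPM, counts scaled to a common library size with the TMM factors of edgeR. The mean log2(CPM + 1) of the muscle genes was 11.03, 9.23 and 13.85 in these libraries. Other libraries also carried them: SOD-CT replicate 4 (8.89), SOD-CCI contralateral replicate 2 (7.42), FOD-CT replicate 1 (7.01) and FOD-CT replicate 3 (5.75). The remaining libraries were at 0.56 to 4.84.

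The glial genes that defined the 3 libraries differed in how far they separated. Gfap, the intermediate filament of astrocytes, was at 1067 CPM in FOD-CT replicate 1, 896 in FOD-CCI contralateral replicate 1 and 317 in FOD-CCI replicate 1. In the 7 other FOD libraries the lowest, median and highest levels of Gfap were 12.0, 23.7 and 66.5 CPM. The 3 libraries were all above the 7, and FOD-CCI replicate 1 was the lowest of the 3. Slc1a3, a glutamate transporter, was at 265, 353 and 137 CPM in the same order, against 19.0, 30.0 and 43.2 CPM. Mbp, a structural protein of both central and peripheral myelin, was at 11074, 19974 and 16231 CPM against 3180, 3873 and 6076 CPM. Mbp did not overlap between the groups, but its lowest level in the 3 was only 1.82 times its highest level in the 7.

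A gene was counted as marking the 3 libraries where its lowest level in them was at least 2-fold above its highest level in the 7, after adding 0.5 CPM to both. Of 16027 genes with a mean of at least 1 CPM over the 10 FOD libraries, 561 were higher by this rule (3.50% of the genes) and 22 were lower (0.137%). The rule used the same contrast as the choice of libraries, so nothing is read from these shares. The gap was at least 4-fold for 250 of the 561 genes and at least 10-fold for 77, and 515 of them are annotated as protein coding. In the 10 SOD libraries, which the choice did not use, 544 of the 561 genes stayed below their lowest level in the 3 libraries. The same count over all 16027 genes was not made, so nothing is read from this share. The genes just inside the threshold were LOC102554658, Slc5a7 and Crb2 (gaps of 1.00 to 1.01 on the log2 scale), and those just outside were Tnfrsf19, Pnoc and Mmel1 (0.99 to 1.00).

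The 561 genes took 6.36% of the counts of FOD-CT replicate 1, 7.61% of FOD-CCI contralateral replicate 1 and 5.75% of FOD-CCI replicate 1. They took 0.869% to 0.979% in the 7 other FOD libraries and 0.627% to 1.13% in the SOD libraries. Over all genes, the counts in excess of the highest of the 7 were 10.2%, 15.3% and 10.8% of the 3 libraries, a mean of 12.1% ± 2.77 (SD, n = 3 libraries from 2 rats). The same measure was 39.7% in SOD-CT replicate 1 and 1.12% to 8.43% in the other SOD libraries. Within the 561 genes alone, the excess was 4.94%, 6.23% and 4.45% of the 3 libraries, so the shares over all genes include other genes. Across the 561 genes the 3 libraries ranked the levels alike, with Spearman correlations of 0.92 to 0.94 (561 genes, which share the libraries and the rule that chose them). In bulk RNA, more cells of a type and more RNA per cell cannot be told apart, so these shares are not numbers of cells.

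All 14 CNS astrocyte genes examined were among the higher genes. Aqp4, the water channel of astrocyte endfeet, was at 1498, 1842 and 747 CPM in FOD-CT replicate 1, FOD-CCI contralateral replicate 1 and FOD-CCI replicate 1, against 0, 0.942 and 21.9 CPM (lowest, median and highest of the 7). Mlc1, a membrane protein of astrocyte contacts, was at 489, 774 and 451 CPM against 0, 1.04 and 7.40 CPM. Agt, the angiotensin precursor that astrocytes secrete, was at 536, 711 and 496 CPM against 1.82, 5.11 and 7.77 CPM. None of these genes came near the range of the 7. Slc1a2, the main glutamate transporter of CNS astrocytes, was at 68.2, 112 and 58.4 CPM and at most 1.64 CPM in the 7. The gap was narrow for Acsbg1, a fatty acid activating enzyme (328, 345 and 316 CPM against 113 to 150 CPM), and for Hepacam, an adhesion protein (125, 150 and 123 CPM against 30.4 to 48.5 CPM). Both of these genes were therefore read in ganglion libraries as well. Aqp4 reached 92.9 CPM in 1 SOD library, above every one of the 7 but far below the 3.

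**Figure D1:**
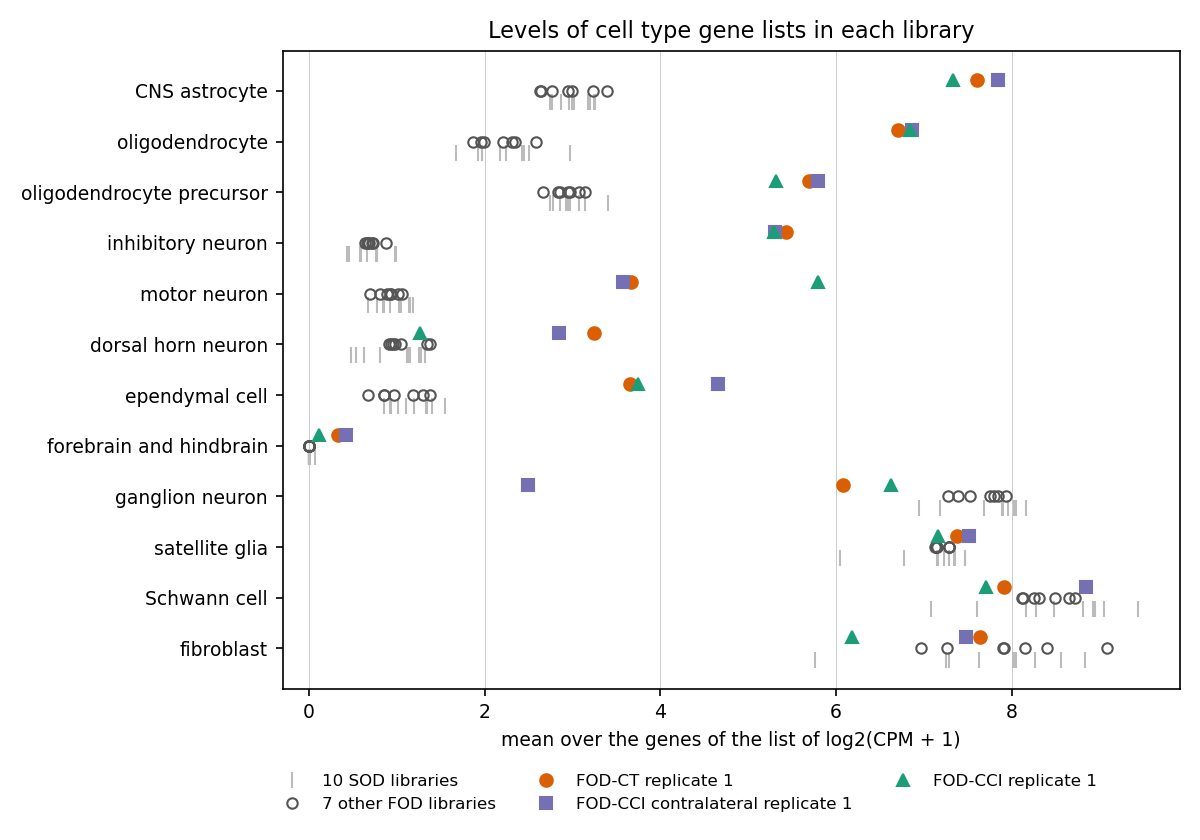
Mean over the genes of each cell type list of log2(CPM + 1), 1 mark per library, for the 3 libraries with cord transcripts (filled), the 7 other FOD libraries (open circles) and the 10 SOD libraries (ticks). CNS astrocyte levels were 7.33 to 7.84 in the 3 libraries and 2.63 to 3.39 in the 7, while ganglion neuron levels fell to 2.49 in FOD-CCI contralateral replicate 1.

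Oligodendrocyte genes were higher for 11 of 14 genes examined. Mobp, a central myelin protein, had the largest gap of all genes, with 571, 701 and 805 CPM in the 3 libraries against at most 0.962 CPM in the 7. The lineage transcription factors Olig1 (198, 285 and 266 CPM) and Olig2 (26.6, 46 and 49.6 CPM) were at most 0.304 CPM and at 0 in the 7. Mog, a protein of the outer surface of central myelin, was at 180, 281 and 232 CPM against 1.33, 3.10 and 5.93 CPM. FOD-CT replicate 1 was the lowest of the 3 for each of these 4 genes. The exceptions in the list were Aspa, an acetylaspartate-cleaving enzyme whose levels overlapped (81.4 to 95.3 CPM against 65.9 to 107 CPM), Tspan2 (212 to 347 against 71.8 to 151 CPM), and Enpp6, which was 17.3 CPM in FOD-CT replicate 1 but 3.29 and 5.30 CPM in the others. Precursor genes were higher for 3 of 5, namely Gpr17, Neu4 and LOC103692025 (Lhfpl3), while Bcan and Ptprz1 were above the 7 in all 3 libraries with gaps under 2-fold.

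Per unit of gene length, Mbp stood far above Mobp and Mag in the 3 libraries and in the 7. In the deposited FPKM values, Mbp was at 3229, 6037 and 4726 in the 3 libraries against 935 to 1815 in the 7. Mobp was at 178, 227 and 251 FPKM against at most 0.306 FPKM, and Mag at 137, 165 and 150 FPKM against 4.94 to 10.9 FPKM. Gfap reached 391, 341 and 116 FPKM against 4.55 to 24.7 FPKM, so it was above Mobp in FOD-CT replicate 1 and FOD-CCI contralateral replicate 1 and below it in FOD-CCI replicate 1.

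Genes of CNS neurons were also present, mostly those of inhibitory cells. Among the inhibitory neuron genes, 7 of 9 were higher, and the other 2, Lhx1 and Lhx5, were at 1.73 to 3.93 CPM in the 3 libraries and at 0 in the 17 others, but under the mean of 1 CPM. Slc6a5, the neuronal glycine transporter, was at 218, 288 and 287 CPM against 0, 0.586 and 2 CPM. Slc32a1, which loads GABA and glycine into vesicles, was at 144, 178 and 196 CPM against at most 1.91 CPM. Gad1, which makes GABA, was at 134, 126 and 94.5 CPM against 1.32, 2.04 and 3.31 CPM. These genes were near 0 in each of the 7 and at similar levels in the 3. Slc12a5, the chloride exporter of mature CNS neurons, was at 387, 374 and 335 CPM against at most 1.15 CPM. Of the 4 other CNS neuron genes none was counted. Camk2a overlapped with the 7, Nrgn did so in FOD-CCI replicate 1 only (6.91 CPM against a highest value of 7.61 CPM), and Grin2a was above the 7 at 2.75 to 3.27 CPM with a gap under 2-fold.

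Motor neuron and dorsal horn genes divided the 3 libraries. Chat, which makes acetylcholine, was at 57.4 CPM in FOD-CCI replicate 1 and at 15.4 and 16.4 CPM in FOD-CT replicate 1 and FOD-CCI contralateral replicate 1. Slc18a3, the vesicular acetylcholine transporter, was at 147 CPM against 32.2 and 32.8 CPM, and the motor neuron factor Mnx1 was at 8.49 CPM against 0.315 and 0 CPM. The 7 others had at most 0.226 CPM of Chat and 0.204 CPM of Slc18a3, and 0 of Mnx1. The dorsal horn genes had the opposite order. Cbln1, a synapse organizer of dorsal horn excitatory neurons, was at 30.7, 23.9 and 7.06 CPM against at most 2.41 CPM, and Lmx1b, a factor of dorsal excitatory neurons, was at 6.13, 7 and 0 CPM against 0, 1.35 and 3.47 CPM. The median ratio of FOD-CT replicate 1 to FOD-CCI replicate 1 was 7.08 over those of 4 dorsal horn genes with counts in FOD-CCI replicate 1. It was 0.268 over 3 motor neuron genes and 1.06 over all 561 higher genes. For FOD-CCI contralateral replicate 1 against FOD-CCI replicate 1, which are the right and left DRG of 1 rat, these ratios were 3.39, 0.286 and 1.31. Lmx1b, at 0 CPM in FOD-CCI replicate 1, gives no such ratio and is in neither dorsal horn median.

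**Figure D2:**
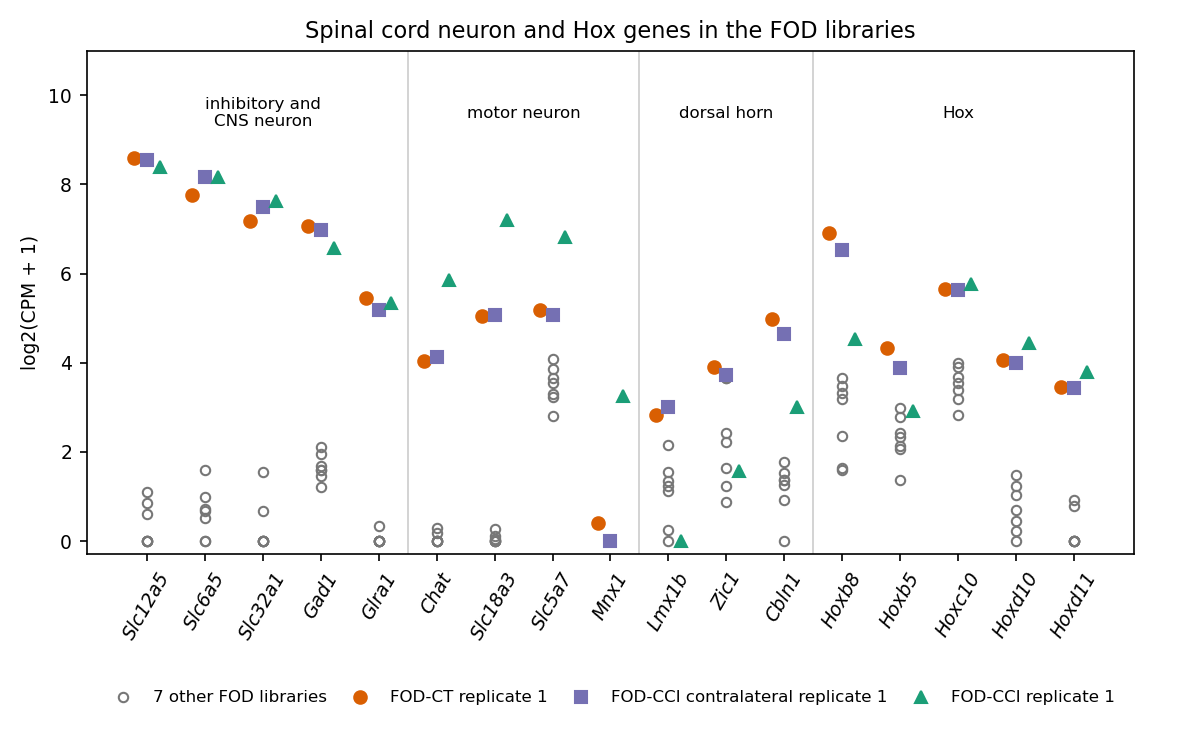
Levels, as log2(CPM + 1), of inhibitory and other CNS neuron genes, motor neuron genes, dorsal horn genes and Hox genes in the 10 FOD libraries, 1 mark per library. Chat, Slc18a3, Slc5a7 and Mnx1 peaked in FOD-CCI replicate 1, which was the lowest of the 3 cord-transcript libraries for Lmx1b, Zic1 and Cbln1.

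Some genes of position along the body axis were raised, while most forebrain and hindbrain genes examined were at 0. Of 12 Hox genes, which record rostrocaudal position, Hoxc10 (49.2, 48.4 and 53.8 CPM against 6.07 to 15 CPM), Hoxd10 (15.8, 14.9 and 20.6 CPM against at most 1.81 CPM) and Hoxd11 (10, 9.88 and 12.9 CPM against at most 0.881 CPM) were higher. The levels of these 3 lumbosacral genes were close among the 3 libraries. Of the 12 Hox genes, 7 lay above the 7 other FOD libraries without overlap, as did 12.3% of all genes. Hoxb8, a gene of thoracic and lower levels, was at 119, 91.0 and 22.3 CPM against 2.03 to 11.6 CPM, and Hoxb13, a gene of the caudal end, was at 31.0, 51.5 and 33.8 CPM and at 0 in the 7. Of 8 forebrain and hindbrain genes, 7 (among them Tbr1 and Otx2) were at 0 in all 10 FOD libraries. The exception was Neurod6, at 5.21, 9.47 and 0.883 CPM in the 3 libraries and 0 in the 7. All 5 genes of ciliated ependymal cells, which line the central canal, were higher, for example Foxj1 at 47.2, 57.5 and 35.5 CPM against 0, 1.44 and 2.57 CPM.

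Vessel and immune genes were mixed. Slco1c1, a thyroid hormone transporter of the blood-brain barrier, was at 64.2, 144 and 90.7 CPM against 3.51 to 17.1 CPM, and was the only one of 5 barrier genes counted. Cldn5 and Slc2a1, which other endothelium also uses, were above the 7 by less than 2-fold. Among 10 microglia and macrophage genes, Sall1 (48.6, 66.5 and 24.4 CPM against at most 1.45 CPM) and Tmem119 (13.9, 27.6 and 15.7 CPM against at most 6.26 CPM), both used as microglial markers, were higher. The other microglial markers did not pass: P2ry12 was above the 7 by less than 2-fold (8.88, 13.1 and 9.56 CPM against at most 5.78 CPM), and Cx3cr1 and Gpr34 overlapped with them. The general macrophage genes Csf1r and Aif1 overlapped with the 7. Csf1r was at 88.7, 102 and 47.7 CPM against 19.0, 56.1 and 154 CPM.

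The other genes of largest gap among those with an assigned symbol, outside the lists, were also at low levels in the 7. Genes without one are not described further, although an unnamed gene had the second largest gap of all, with at least 1115 CPM in the 3 libraries and at most 2.43 CPM in the 7. Itih3, a protein that binds hyaluronan, was at 516, 431 and 421 CPM against at most 1.89 CPM, and Klk6, a protease made by oligodendrocytes, was at 74.8, 72.1 and 60.9 CPM against 0. Rasgrf1, a Ras activator of CNS neurons, was at 332, 371 and 377 CPM against 3.91, 5.15 and 9.09 CPM. Beside these and Hoxb13, the genes were Igsf1, Wscd1, Pnck, Pou3f3, S1pr5, Slc30a3, Grin2c and Grm3, with 16.5 to 242 CPM in the 3 libraries and at most 4.58 CPM in the 7. S1pr5 is a receptor of oligodendrocytes, and Grin2c and Grm3 are glutamate receptor genes.

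Genes that the ganglion itself expresses are those that cannot be read in the 3 libraries, because both sources enter 1 number. The median level in the 7 was under 1 CPM for 251 of the 561 genes, from 1 to 10 CPM for 188 and at least 10 CPM for 122, of which 18 were at 100 CPM or more. Set against all 9826 genes at 10 CPM or more in the 7, the 122 are 1.24%. Of 14 glial genes shared by cord and ganglion, 5 were counted as higher. Glul, which makes glutamine from glutamate, was at 1052, 1249 and 1086 CPM against 265, 298 and 472 CPM. Mag, a myelin adhesion protein, was at 344, 399 and 378 CPM against 12.7, 18.9 and 26.9 CPM, and Cnp, a myelin enzyme, was at 1036, 1184 and 1017 CPM against 369, 399 and 469 CPM. Slc1a3 was also among them. A further 9 shared genes were not counted: Mbp was above the 7 in all 3 libraries, S100b also (2736, 3406 and 2445 CPM against 1434 to 2021 CPM), and Sox10, a factor of all myelinating glia, lay inside the range (147, 126 and 114 CPM against 108 to 149 CPM). Apoe, a lipid carrier, was inside the range in FOD-CT replicate 1 (3660 CPM) and below it in the other 2 libraries (2796 and 3254 CPM against 3429 to 4685 CPM).

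Ganglion neuron genes were lower in the 3 libraries, to very different degrees. Of 17 genes, 15 were lower without overlap between the 3 and the 7, and 2 of them, Trpa1 and P2rx3, passed the 2-fold gap. Over all 16027 genes, 8.01% were lower and 12.3% higher without overlap, from the same contrast that chose the libraries. As a percent of the median of the 7, the median over the 17 genes was 29.8% in FOD-CT replicate 1, 42.4% in FOD-CCI replicate 1 and 0.965% in FOD-CCI contralateral replicate 1. Scn10a, the sodium channel of nociceptors, was at 45.7, 0 and 68.4 CPM in FOD-CT replicate 1, FOD-CCI contralateral replicate 1 and FOD-CCI replicate 1, against 118, 211 and 278 CPM. Calca, the precursor of the peptide CGRP, was at 342, 18.2 and 557 CPM against 630, 1052 and 1420 CPM. Prph, a filament of small sensory neurons, was at 900, 103 and 1833 CPM against 2470, 3200 and 4293 CPM. FOD-CCI contralateral replicate 1 was thus the lowest for each of them, and the heat receptor Trpv1, the transcription factors Isl1 and Prdm12, and Mrgprd were also at 0 there. At its total of 22547190 counts, a level of 0 is an absence of counts at this depth only. Of the 17 genes, 2 were outside the range of the 7 in only 2 of the 3 libraries. Nefh, a filament of large sensory and motor neurons, was 1 of them, at 4681 CPM in FOD-CCI replicate 1 against 2523, 4474 and 5942 CPM. Of 8 genes shared by cord and ganglion neurons, 6 were outside the range of the 7 in all 3 libraries (21.3% over all genes), 3 of them above it throughout and 2 below it throughout. Snap25, a protein of synaptic vesicle release, was not one of them and was at 1530, 1215 and 2199 CPM against 625, 1176 and 1669 CPM.

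**Figure D3:**
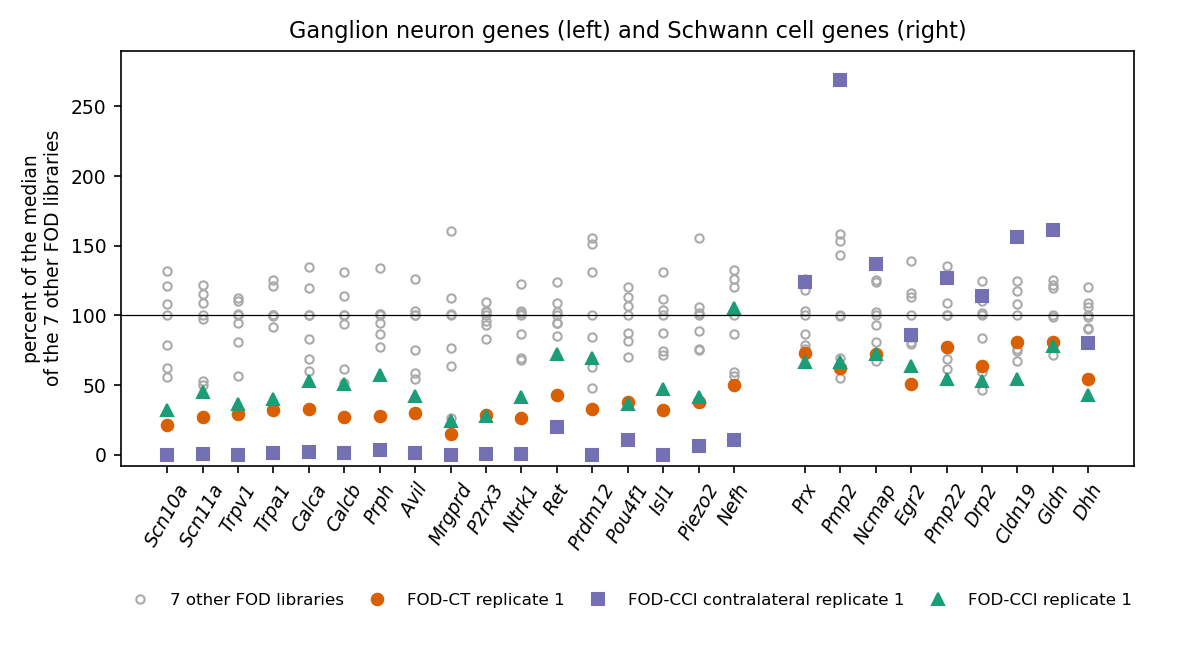
Levels of 17 ganglion neuron genes (left) and 9 of 10 Schwann cell genes (right) in the 10 FOD libraries, as a percent of the median of the 7 other FOD libraries for that gene (line at 100%). Over the ganglion neuron genes the median was 29.8% in FOD-CT replicate 1, 42.4% in FOD-CCI replicate 1 and 0.965% in FOD-CCI contralateral replicate 1, while over the 10 Schwann cell genes these were 72.4%, 62.8% and 132%.

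None of 10 Schwann cell genes passed the gap in either direction, which 3.50% and 0.137% of all genes did. Of the 10, 1 was outside the range of the 7 in all 3 libraries, 4 in 2 of them, 4 in 1 and 1 in none. Pmp22, a protein of peripheral myelin, was at 4375, 7172 and 3083 CPM against 3501, 5661 and 7688 CPM, and Pmp2, a fatty acid binding protein of Schwann cells, was at 344, 1485 and 368 CPM against 305, 552 and 874 CPM. FOD-CCI contralateral replicate 1, which lacked most ganglion neuron transcripts, was thus above the 7 for Pmp2 and within them for Pmp22. Of the genes of satellite glia that astrocytes share, the potassium channel gene Kcnj10 was above the 7 in all 3 (57.8, 74.2 and 54.1 CPM against 27.8 to 38.9 CPM), and the fatty acid binding gene Fabp7 was above them in FOD-CT replicate 1 and FOD-CCI contralateral replicate 1 but not in FOD-CCI replicate 1 (169, 233 and 127 CPM against 62.8 to 141 CPM). Cdh19, a cadherin of peripheral glia, was below the 7 (45.8, 39.1 and 39.8 CPM against 70.5 to 172 CPM). Col1a1, a collagen gene of fibroblasts, was at 298, 286 and 169 CPM against 331, 472 and 1001 CPM, while the mean level of the fibroblast list was below the 7 in FOD-CCI replicate 1 only. Of the 22 lower genes, 14 were also below all 10 SOD libraries, a count that was not made over all genes and is a description. Scn7a, a sodium channel gene of peripheral glia and neurons, was at 310, 173 and 287 CPM against 683, 856 and 958 CPM, and Pcsk1, a peptide-processing enzyme, was at 32.8, 14.7 and 31.9 CPM against 77.6 to 116 CPM.

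The other lower genes of largest gap with an assigned symbol were of several kinds. S100a11, a calcium-binding protein, was at 33.8, 18.2 and 32.5 CPM against 85.1, 96.4 and 216 CPM, Cd44, a hyaluronan receptor, at 49.7, 29.5 and 42 CPM against 105, 120 and 341 CPM, and the matrix protein Matn2 at 149, 151 and 144 CPM against 314, 349 and 418 CPM. The remainder were Iqgap3 (0 in the 3 and 1.52 to 6.33 CPM in the 7), Postn, Serpinb1a, Sh2d1b2, Slc7a7, Gda and Duox2. The genes just inside the threshold were Rspo2, an unnamed gene and LOC102546594, and those just outside were Alpk1, Tmem176b and Lgals3. The count of lower genes depended on single libraries, because each of the 3 had to be low: it was 162 without FOD-CCI replicate 1, 94 without FOD-CT replicate 1, 34 without FOD-CT replicate 2 and 35 without FOD-CCI contralateral replicate 3. With FOD-CT replicate 2 and FOD-CCI contralateral replicate 3, those of the 7 with most muscle transcripts, both left out, it was 52. In FOD-CCI contralateral replicate 1 alone, 1214 genes were at least 2-fold below the 7, against 226 in FOD-CT replicate 1 and 242 in FOD-CCI replicate 1, and 982 of the genes were that low in no other of the 3.

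FOD-CCI replicate 1 was labelled as injured but was far below the other FOD-CCI libraries for the injury genes Atf3, Npy and Gal. Atf3, a transcription factor switched on in axotomized sensory neurons, was at 3.24 CPM in FOD-CCI replicate 1 and at 202, 514 and 318 CPM in replicates 2 to 4. The contralateral FOD libraries had 6.5, 10.3 and 10.4 CPM of Atf3, so replicate 1 was below each of them. Npy, a neuropeptide induced in large neurons by injury, was at 5.15 CPM in replicate 1 and 243, 758 and 456 CPM in replicates 2 to 4, and Gal, another injury-induced neuropeptide, was at 8.53 CPM against 89.3, 393 and 270 CPM. Ganglion neuron genes of the same library stood at 42.4% of the 7 in the median. Within rats, the median log2 ratio of left to contralateral DRG over 16 injury genes was 0.09 in FOD-CCI replicate 1, with 9 genes positive, against 1.71 and 3.42 in FOD-CCI replicates 2 and 3 and 2.88 to 3.35 in the SOD-CCI rats, with 16 genes positive in each. Of the 16 log2 ratios in FOD-CCI replicate 1, 3 were at least 1, namely those of Arg1 (2.43), Vip (1.86) and Gal (1.73). The contralateral DRG of replicate 1 is the library without most ganglion neuron transcripts. The ratio in that rat therefore sets 2 libraries with cord transcripts against each other. Whether CCI or the sampled tissue set the low levels was not tested.

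**Figure D4:**
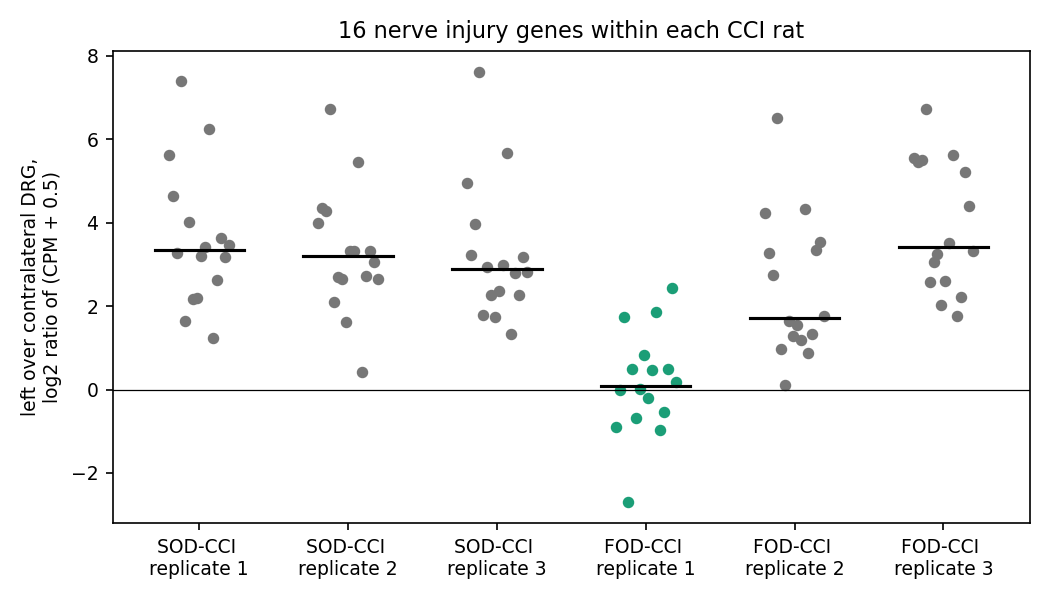
Log2 ratio of (CPM + 0.5) in the left over the contralateral DRG for 16 nerve injury genes (points) in each CCI rat with both sides sequenced, with the median as a bar. The median was 0.09 in FOD-CCI replicate 1 and 1.71 to 3.42 in the 5 other rats.

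The genes the study named for effects of diet or of injury were affected unevenly. Of 30 such genes examined, 11 were outside the range of the 7 in all 3 libraries, 6 in 2 of them, 7 in 1, and 6 in none. Over all 16027 genes, 21.3% were outside the range in all 3 libraries and 28.2% in none. Above the range in all 3 were the glutamate genes Slc1a3, Glul and Glud1 (735, 845 and 744 CPM against 261 to 338 CPM), the lipid genes Chpt1, which makes phosphatidylcholine (41.4, 82.0 and 40.6 CPM against 8.74 to 20.3 CPM), and Lipe, and the selenium gene Sephs2. Below it in all 3 were Scn10a, Trpa1, Piezo2, the vesicular glutamate transporter Slc17a7 (64.4, 0 and 87.4 CPM against 132, 225 and 330 CPM) and the neuropeptide gene Adcyap1. Of the genes above the range in all 3, Slc1a3, Glul and Glud1 passed the 2-fold gap, while Chpt1, Lipe and Sephs2 did not. Gpx4, which reduces lipid peroxides, was at 487, 520 and 869 CPM against 694, 878 and 1459 CPM, and so below the range in 2 of the 3. Creb1, Mgll, Cept1, Oprm1, C3 and Hba2 were inside it in all 3.

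Because each FOD group held 1 of the 3 libraries and no SOD group did, diet comparisons carried their transcripts. Genes were tested by label with edgeR's quasi-likelihood model and called at an adjusted p up to 0.1 with a change of 1.2-fold or more. Between FOD-CT and SOD-CT, 0 of 14484 genes were called (0%), with 491 at an unadjusted p under 0.05 and 0 called by DESeq2. Of the 561 higher genes, 299 were tested, 294 had a positive log2FC, and their median was 1.32, where the median over all tested genes was −0.01. With FOD-CT replicate 1 and FOD-CCI replicate 1 left out of the model, 137 of 299 were positive and the median was −0.04 (all genes −0.03). The rule that chose the higher genes used every FOD-CT library, with replicate 1 high and replicates 2 and 3 low. These counts and medians, with and without replicate 1, are therefore a description. Gfap had a log2FC of 4.13 (SE 1.15, adjusted p = 0.965) with all libraries and −0.11 (SE 0.38) without the 2. For Slc1a3 the values were 1.91 (SE 0.76, adjusted p = 0.965) and 0.00 (SE 0.29), and its FOD-CT level went from 108 ± 137 CPM (SD, n = 3) to 28.6 ± 1.86 CPM (n = 2), beside 29.1 ± 6.10 CPM (n = 4) in SOD-CT. For Glul the log2FC went from 0.42 (SE 0.53) to −0.56 (SE 0.34), a change of sign.

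Between FOD-CCI and SOD-CCI, 0 of 14484 genes were called (0%), with 782 at an unadjusted p under 0.05 and 2 called by DESeq2. The 299 tested higher genes had a median log2FC of 1.14, with 296 positive, and −0.14, with 116 positive, once FOD-CT replicate 1 and FOD-CCI replicate 1 were left out. The rule that chose these genes used every FOD-CCI library, so both medians are a description. Mbp went from 1.36 (SE 0.62, adjusted p = 0.859) to 0.62 (SE 0.45), Glul from 0.90 (SE 0.55, adjusted p = 0.859) to 0.34 (SE 0.31), and Slc1a3 from 1.19 (SE 0.79) to 0.14 (SE 0.27). Gpx4, in contrast, was at 1.10 (SE 0.36, adjusted p = 0.859) and 1.12 (SE 0.37, adjusted p = 0.801). Scn10a was at −1.27 (SE 0.50, adjusted p = 0.859) and −1.07 (SE 0.36, adjusted p = 0.801), and Trpa1 at −1.37 (SE 0.53) and −1.13 (SE 0.48). The values of Gpx4, Scn10a and Trpa1 therefore moved by less than their SE, although the libraries left out were below the 7 for Scn10a and Trpa1. No gene named here passed the threshold in either setting.

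Contralateral DRG of FOD-CCI against SOD-CCI rats gave 0 called genes of 13590 (0%) with all libraries, 1292 at an unadjusted p under 0.05 and 202 called by DESeq2. Without FOD-CCI contralateral replicate 1 it gave 17 of 14213 (0.120%), all higher in FOD. This set 2 FOD libraries, of which replicate 3 carried skeletal muscle transcripts, against 3 SOD libraries, of which replicate 2 carried them too. The 17 were led by Cox7b, a subunit of cytochrome oxidase (log2FC 1.91, SE 0.26, adjusted p = 0.0801), the red cell gene Hba-a1, Lyz2, LOC100362366 and Igfbp6. The 281 tested higher genes went from a median of 1.46, with 279 positive, to −0.17, with 112 positive. Their choice used every contralateral FOD library, so both medians are a description. Ganglion neuron genes were affected through the filter as well: 12 of 17 were tested with all libraries, all negative with a median of −0.75, and 17 of 17 without that library, 5 positive with a median of −0.29. Scn10a, and Slc17a7 outside that list, could be tested only without it, with log2FC of −0.37 (SE 0.24) and −0.38 (SE 0.28), neither past the threshold.

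**Figure D5:**
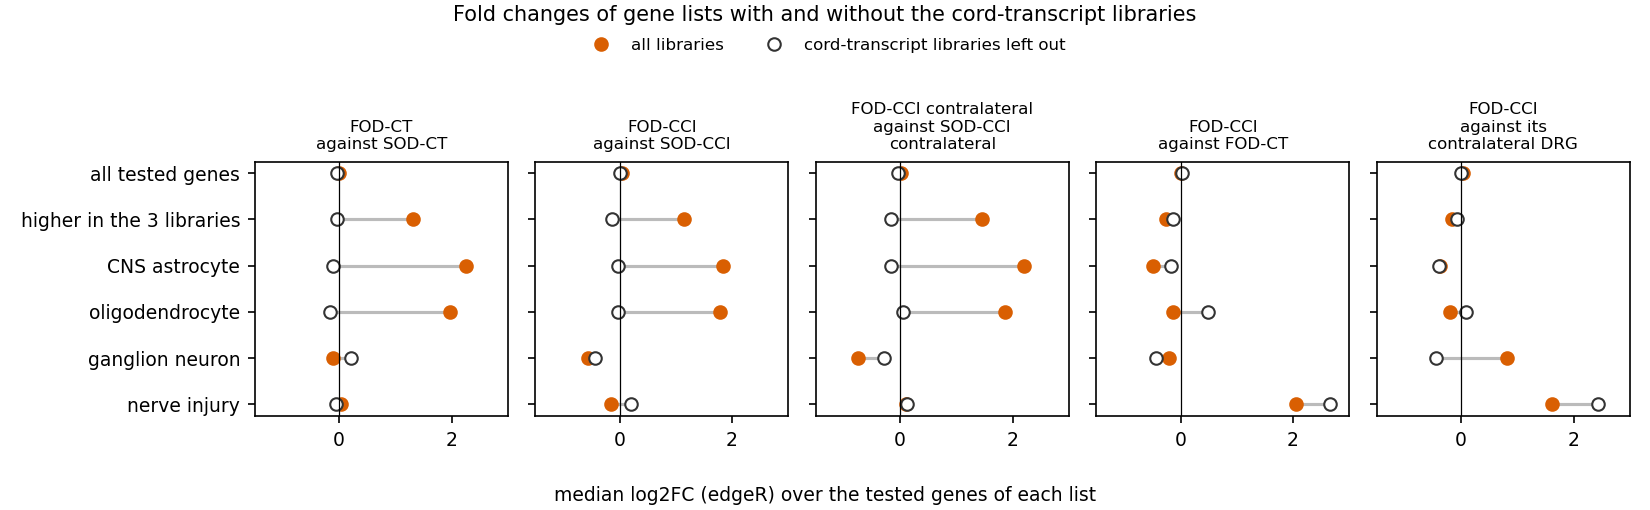
Median log2FC (edgeR) over the tested genes of each list in 5 comparisons, with all libraries (filled) and with the cord-transcript libraries left out (open). The genes higher in the 3 libraries moved from 1.14 to 1.46 in the 3 diet comparisons to −0.17 to −0.04, and ganglion neuron genes moved from 0.81 to −0.44 between FOD-CCI and its contralateral DRG. The rule that chose the higher genes used all FOD libraries, so their shift is a description.

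In the injury comparisons both sides held cord-transcript libraries. Between FOD-CCI and FOD-CT, 0 of 14484 genes were called (0%) with all libraries and 0 of 14688 without the 2, with 654 and 1180 genes at an unadjusted p under 0.05, and DESeq2 called 21 with all libraries. Leaving out FOD-CCI replicate 1 alone gave 43 called genes. The sign of Gfap turned, from −1.54 (SE 1.06, adjusted p = 1.000) to 1.72 (SE 0.42, adjusted p = 0.228). Gfap was at 23.7 and 15.2 CPM in FOD-CT replicates 2 and 3 and at 65.7, 66.5 and 60.6 CPM in FOD-CCI replicates 2 to 4, so these libraries did not overlap, while FOD-CT replicate 1 alone raised the FOD-CT mean to 369 CPM. The 14 tested injury genes, all positive in both settings, had medians of 2.06 and 2.66.

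FOD-CCI against its contralateral DRG, with the rat as a block, gave 2 called genes of 14462 (0.0138%), with 1012 at an unadjusted p under 0.05 and 280 called by DESeq2. The 2 genes were Ssc5d, a scavenger receptor family gene (log2FC 2.82, SE 0.26, adjusted p = 0.0229), and Arg1, the arginine-cleaving enzyme (4.10, SE 0.44, adjusted p = 0.0483). Without both DRG of FOD-CCI replicate 1 it gave 137 of 14875 (0.921%), 90 higher and 47 lower, which included the 2. That difference between sides then came from FOD-CCI replicates 2 and 3 only, because replicate 4 had no contralateral library. The SOD-CCI rats in the model entered only the estimate of the spread. With the pair of DRG from FOD-CCI replicate 3, or from SOD-CCI replicate 2, left out, 0 genes were called. Injury genes called rose from 1 of 13 tested to 12 of 14, and their median log2FC from 1.61 to 2.44. Npy went from 5.09 (SE 2.30, adjusted p = 0.700) to 6.76 (SE 0.36, adjusted p = 0.000104), and Atf3 from 3.43 (SE 1.29, adjusted p = 0.633) to 4.91 (SE 0.47, adjusted p = 0.00445). Vip, another neuropeptide, and Vgf, a secreted precursor protein, were called at 5.42 and 2.68. The standard errors of Npy and Atf3 were thus smaller with fewer libraries.

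Ganglion neuron genes turned in the same comparison. With all libraries 17 of 17 were positive with a median log2FC of 0.81, and without FOD-CCI replicate 1 and its contralateral DRG 4 of 17 were positive with a median of −0.44, where the median over all genes was 0.04 and 0.00. Scn10a went from 0.79 (SE 1.59) to −0.76 (SE 0.24), Slc17a7 from 0.75 (SE 1.64) to −0.80 (SE 0.22) and Piezo2 from 0.54 (SE 0.56) to −0.38 (SE 0.25). None of these 3 passed the threshold in either setting. The genes higher in the 3 libraries changed little, from a median of −0.16 to −0.08 over 312 tested genes, since both sides of that rat carried them. Gfap was at 0.95 (SE 0.77) and 2.04 (SE 0.48, adjusted p = 0.142), and Slc1a3 at −1.10 (SE 0.21) and −0.95 (SE 0.27). The FOD-CCI libraries enter 3 of these 5 comparisons, so their values are not independent of each other.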

How the data were processed

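RNA from 20 DRG libraries of 14 rats was sequenced by the authors, who deposited a table of 39747 genes with read counts from featureCounts (1.5.0-p3) and FPKM values. The submitters' processing notes also name fastp and HISAT2. Which build was aligned to, whether strand was used and how multiply matched reads were handled are not given in the sources used here, so no coordinates are printed, and reads from near-identical or antisense genes cannot be told apart. The deposited FPKM values equalled the count divided by length and a DESeq2 size factor within 0.1%, and were used only to compare levels between genes. No per-sample column was left unused.

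Counts were scaled by TMM (edgeR 4.0.16 in R 4.3.3) and described with Python 3.11.15, pandas 2.3.3 and matplotlib 3.10.9. The gap was computed with 0.5 CPM added, over genes with a mean of at least 1 CPM. The comparisons by label used edgeR's quasi-likelihood test with Benjamini-Hochberg adjustment, on genes with 10 counts in at least 90% of the libraries. All adjusted p-values in the report come from this test, and DESeq2 1.42.0 was an alternative. The left DRG were fitted together. The left and contralateral DRG of CCI rats were fitted with the rat as a block, on 13 DRG. FOD-CCI replicate 4 had no contralateral library, so it added nothing to the difference between sides. For the pairing check, deviations from the group means of left and contralateral DRG of the same number, which share a rat, correlated at 0.44, 0.14 and 0.18 in FOD and 0.49, 0.17 and 0.19 in SOD. FOD-CT and FOD-CCI libraries of the same number, from different rats, correlated at 0.47, 0.27 and 0.23. Samples are separate DRG, and where a group holds separate rats the p-values cover the spread between these rats.

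The 3 libraries, the cell type lists and the lists of study genes were chosen with earlier results of these data known. Genes were named from these lists, from the 12 largest gaps in each direction outside the lists among genes with an assigned symbol (leaving out unnamed genes and placeholder symbols such as those starting with LOC or RGD), the 3 genes on each side of the threshold and the 5 called genes of smallest p in a test. Of 217 list entries, 209 were matched, nearly all by symbol and Lhfpl3 and Slco1a4 by gene ID in the GRCr8 annotation. Hba-a2 and Hba-a3 were not matched separately, and Col1a2, Hoxa5, Hoxa7, Hoxa9, Hoxa10 and Pnpla2 were not analysed here. The scripts were tested on simulated counts.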

Additional observations from a re-analysis of the deposited data

Results flagged for a closer look

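In the groups of 4 libraries, FOD-CCI and SOD-CT, the mean log2(CPM + 1) of each of 28 gene lists was examined for a library far from the other 3 by Dixon's test at the 95% level, which chance alone passes in about 1 in 20 groups. Of 56 combinations, 13 passed. FOD-CCI replicate 1 was that library in 10 of them. It was high for Gfap, Mbp and Slc1a3 together (9.80, against 7.44 to 7.74 in replicates 2 to 4), for astrocyte genes (7.33 against 2.63 to 3.23), oligodendrocyte genes (6.84 against 1.99 to 2.59), inhibitory neuron genes (5.29 against 0.67 to 0.73) and motor neuron genes (5.79 against 0.89 to 1.06). It was also high for other CNS neuron genes (4.60), Hox genes (3.78), brain barrier endothelium genes (6.61) and forebrain and hindbrain genes (0.11, where the others were at 0). It was low for the pain genes of the study (4.19 against 5.10 to 5.24). The library was chosen for its glial genes, so these values are a description.

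The other 3 were satellite glia genes at 7.29 in FOD-CCI replicate 4 (7.14 to 7.16 in the others), forebrain and hindbrain genes at 0.07 in SOD-CT replicate 4, and microglia and macrophage genes at 1.17 in SOD-CT replicate 1 (2.56 to 2.79 in the others), the library with most muscle transcripts.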

How the results depend on the processing

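The number of genes higher in the 3 libraries stayed within 1.5 times of 561 in 15 of 18 alternatives, and was 263 with a mean of at least 10 CPM, 250 with a 4-fold gap and 1968 with no minimum gap. Leaving out single libraries gave 568 to 699. The 22 lower genes became 12, 1 and 1283 under these settings and 35 with a pseudocount of 0.1 CPM. They became 52 without FOD-CT replicate 2 and FOD-CCI contralateral replicate 3, those of the 7 with most muscle transcripts. That alternative was chosen after seeing the data. Without single libraries they became 28 to 162, with 162 without FOD-CCI replicate 1 and 94 without FOD-CT replicate 1. The counts above the range were 10.5% to 13.0% without single libraries and 19.6% against the mean of the 7, and ganglion neuron genes 15.7% to 37.1% of the 7.

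DESeq2 called 21 genes between FOD-CCI and FOD-CT, 2 between FOD-CCI and SOD-CCI, 280 between FOD-CCI and its contralateral DRG and 202 between the contralateral DRG of the diets, and the cause was not tested. Leaving out single libraries gave 0 to 43 in the first (43 without FOD-CCI replicate 1), 0 in the second and 0 between FOD-CT and SOD-CT. Between FOD-CCI and its contralateral DRG the 2 called genes became 62 with no filter, 1 with no rat block and 137 without the cord-transcript libraries. They became 0 to 137 without single rats, with 0 without replicate 3 of FOD-CCI or replicate 2 of SOD-CCI. Between the contralateral DRG, 17 were called without FOD-CCI contralateral replicate 1, and 0 to 17 without single libraries. In the 4 other comparisons, a block by replicate number, which joins libraries of different rats and is not a pairing, gave 0 called genes.

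With 3 libraries from 2 rats, all on FOD, diet and cord transcripts cannot be told apart from these 3 libraries alone. The 7 other FOD libraries, on the same diet, had 0.869% to 0.979% of their counts in the genes higher in the 3. The SOD libraries had 0.627% to 1.13% and the 3 libraries 5.75% to 7.61%. Whether diet had a part in the cord transcripts of the 3 libraries was not tested. Depth limits readings of 0.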
